A study of Mus musculus with 8 samples.

Results

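The genes described here encode structural proteins of myelin: Mbp, Mog, Mag, Mobp, Cnp, Mal, Cldn11 and Pmp22. They were chosen by name, and all 15 probe sets that the annotation of the MG U74Av2 array assigns to one of these 8 gene symbols were taken, out of 12422 probe sets and 8251 genes measured. A probe set is a group of short oligonucleotides on the array that together report one transcript. Values are log2 signals, so a difference of 1 is a doubling, and only values of the same probe set were compared with each other. RNA came from whole spinal cords of female SJL/J mice, 8 to 12 weeks old by the sample labels, with RNA of 2 animals pooled per array. The 5 EAE arrays (10 mice) came from mice given a myelin peptide under the skin of the flank and killed at an average EAE grade of 2.5, between day 12 and day 17. The 3 control arrays (6 mice) came from healthy mice given vehicle. EAE (experimental autoimmune encephalomyelitis) is a model in which T cells primed against a myelin antigen enter the central nervous system. EAE mice also received murine serum albumin into a vein 3 hours before death (0.1% in 100 ul), and the labels name no such injection for controls, so albumin and EAE cannot be told apart. According to the methods, induction of EAE used peptide in Complete Freund's Adjuvant with Mycobacterium tuberculosis, and injections of pertussis toxin. The methods do not name these for healthy controls, and their part in the differences was not tested. The arrays fell into 5 batches, of which batches 1, 2 and 3 held an EAE and a control array and batches 4 and 5 an EAE array only.

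Oligodendrocytes wrap axons of the central nervous system in many turns of membrane, which compact into myelin. Mbp protein holds the inner faces of the membrane together, while other members sit at its outer surface, next to the axon or along tight junctions between the turns. Oligodendrocytes are damaged in EAE lesions. The level of myelin transcripts in whole cord reflects the number of these cells, the RNA that each holds and the RNA that other cells add to the sample. In RNA of whole tissue, fewer cells of a type, less RNA per cell and more RNA from other cells cannot be told apart.

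Mog and Mal were lower in EAE than in control, and no structural myelin gene was higher. At an adjusted p under 0.05 (limma with batch as a term, Benjamini-Hochberg adjustment over all probe sets) 2 of the 15 probe sets were lower and 0 were higher, against 11.4% and 8.26% of all 12422 probe sets. At an unadjusted p under 0.05 the number was 3. The share of members called lower was thus near the share over the whole array, and the results concern single genes rather than the group. The log2 fold change was negative for 7 of the 8 genes, and its median was -0.16 over the members and -0.05 over all genes. Only the probe sets of Mog and Mal had all EAE arrays below all control arrays, a pattern shown by 15.1% of all probe sets, and 0 members had all EAE arrays above (10.9% of all).

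The promoters of both lower genes are shown beside that of Mobp, picked for its number of ACAAAG matches from the members that did not pass the test, as the 250 bases before the annotated start of each gene, 5′ to 3′ (RefSeq, assembly GRCm38.p6). The windows lie at chr17:37023399-37023648 on the minus strand for Mog, chr2:127656696-127656945 on the minus strand for Mal and chr9:120149492-120149741 on the plus strand for Mobp. Capitals mark matches on either strand to ACAAAG, the core bound by SOX factors such as Sox10, and to CTGGNAC, a form of the motif of Myrf, the regulator of myelin genes; the motifs can share the bases AC.
Mog: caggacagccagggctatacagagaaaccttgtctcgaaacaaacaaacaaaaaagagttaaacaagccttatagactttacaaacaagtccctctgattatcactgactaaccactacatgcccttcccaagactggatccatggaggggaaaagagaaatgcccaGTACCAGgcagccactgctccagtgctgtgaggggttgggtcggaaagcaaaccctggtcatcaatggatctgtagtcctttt
Mal: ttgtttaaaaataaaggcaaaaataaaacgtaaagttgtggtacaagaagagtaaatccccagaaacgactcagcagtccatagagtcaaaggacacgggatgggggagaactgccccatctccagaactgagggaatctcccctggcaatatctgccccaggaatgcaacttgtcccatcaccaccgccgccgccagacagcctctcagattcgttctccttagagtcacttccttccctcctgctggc
Mobp: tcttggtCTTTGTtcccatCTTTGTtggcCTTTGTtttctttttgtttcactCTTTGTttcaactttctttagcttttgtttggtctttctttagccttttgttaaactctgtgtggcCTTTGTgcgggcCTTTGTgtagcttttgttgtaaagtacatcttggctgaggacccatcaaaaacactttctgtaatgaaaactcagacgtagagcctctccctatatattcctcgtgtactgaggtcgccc
Windows of 7 of the 8 genes were used, 12 in all, and Mbp was not. ACAAAG was present in 4 of the 12 windows and in 16.5% of all 32851 windows of this length, and CTGGNAC in 5 of the 12 and in 16.1% of all. The Mobp window held 6 matches to ACAAAG, the highest number in the table and reached by 1 window of 32851. The Mog window held 0 matches to ACAAAG and 1 to CTGGNAC, and the Mal window 0 of either. Among members that did not pass, the windows of Cldn11 and Pmp22 and 1 of the 3 Mag windows held 0 matches to ACAAAG as well. The other Mag windows overlap and share their matches, so that this stretch enters each of the counts of 4 and 5 windows more than once. A match is a stretch of letters and no measurement of binding.

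Mog (myelin oligodendrocyte glycoprotein), an immunoglobulin-like protein of the outermost myelin surface and itself an antigen used to induce EAE, had the largest fall of the 15 probe sets. Its probe set 103987_at had log2 signals of 8.21, 8.50, 8.85, 8.24 and 8.66 in EAE arrays 1 to 5, against 9.10, 9.41 and 9.73 in control arrays 1 to 3. The highest EAE array, EAE 3, lay below the lowest control array. The mean was 8.49 ± 0.27 in EAE (SD, n = 5 arrays) and 9.42 ± 0.31 in control (SD, n = 3 arrays). The log2 fold change was -0.89 (standard error, SE, 0.0628, 95% interval -1.05 to -0.73, limma adjusted p = 0.00157), so that the EAE signal was 53.8% of control (48.2 to 60.2%). The difference was -0.89, -0.91 and -0.88 within batches 1, 2 and 3. With batch as a term the fold change rests on these pairs, and EAE arrays 4 and 5 do not add to it. An exact two-sided permutation test of the group means over the 56 regroupings of the 8 arrays gave p = 0.0179, the smallest it can give.

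Mal, a small membrane protein of lipid rafts in compact myelin, was the other gene that fell. The log2 signal of 99089_at was 9.29, 9.58, 9.34, 9.28 and 9.60 in EAE arrays 1 to 5, against 9.73, 10.00 and 10.06 in control arrays 1 to 3. The groups did not overlap, although EAE 2 and EAE 5 came close to control 1. The means were 9.42 ± 0.16 in EAE (SD, n = 5) and 9.93 ± 0.18 in control (SD, n = 3). Its log2 fold change of -0.53 (SE 0.0889, 95% interval -0.76 to -0.30, limma adjusted p = 0.0183) put EAE at 69.4% of control (59.2 to 81.2%), with an exact permutation p of 0.0179. Within batches the difference was -0.43, -0.42 and -0.73. With array 2 of either group left out the log2 fold change was -0.58 and the adjusted p 0.0554, and with array 3 of either group left out they were -0.43 and 0.0805, so that Mal was lower but no longer called, with 1 residual degree of freedom. Without array 1 of either group the call was kept (-0.57, adjusted p = 0.0338).

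**Figure D1:**
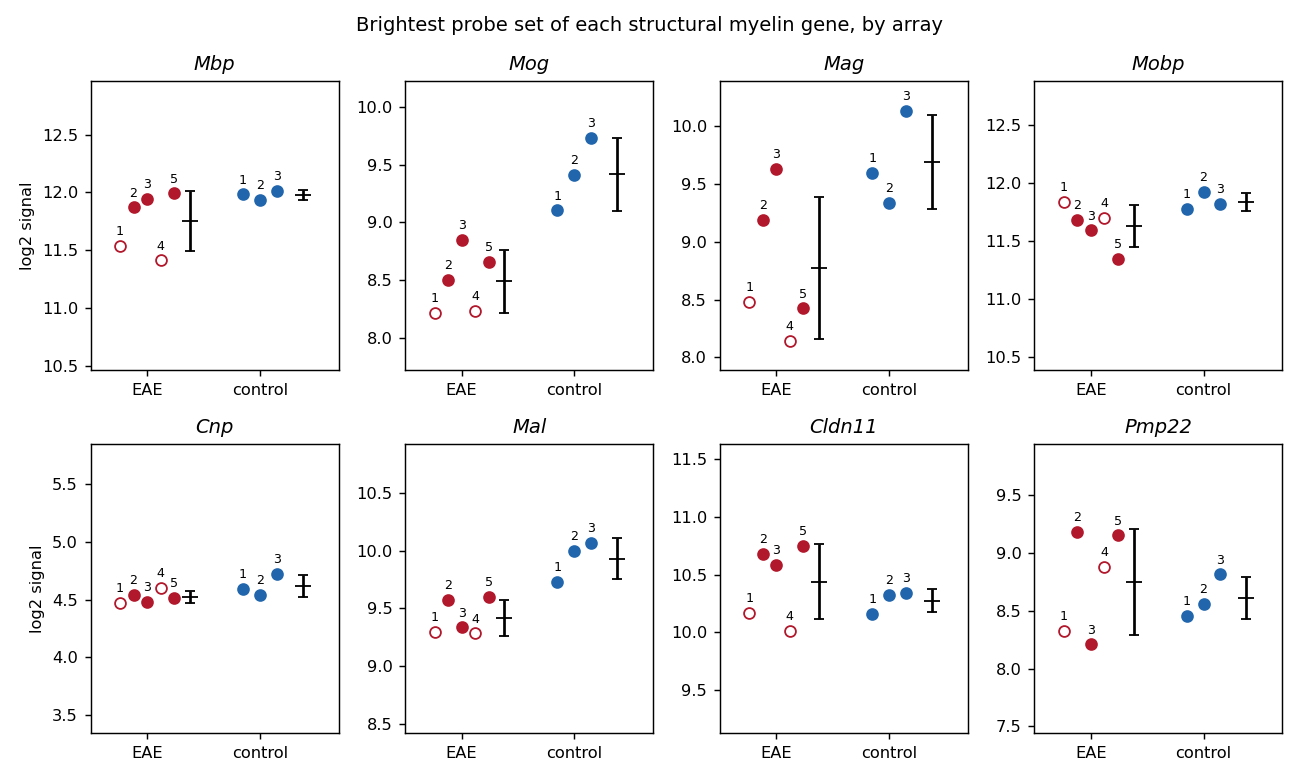
Log2 signal of the brightest probe set of each structural myelin gene on the 5 EAE arrays and the 3 control arrays, with the array number above each point, the group mean and SD as bars, and open circles for EAE arrays 1 and 4. The EAE arrays of Mog (8.21 to 8.85) and Mal (9.28 to 9.60) all lie below their control arrays, and the groups of the other 6 genes overlap.

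Mag (myelin-associated glycoprotein), an adhesion protein of the innermost myelin membrane that faces the axon, had low values in some EAE arrays only. The log2 signal of 102405_at was 8.48, 9.19, 9.63, 8.15 and 8.42 in EAE arrays 1 to 5, and 9.60, 9.34 and 10.13 in control arrays 1 to 3. EAE arrays 1, 4 and 5 lay well below the controls and EAE 2 just below them, while EAE 3 lay between control 1 and control 3. The log2 fold change of -0.59 (SE 0.190, 95% interval -1.07 to -0.10) did not pass after adjustment (limma adjusted p = 0.0980, unadjusted 0.0263), and the exact permutation p was 0.0714. The pairs differed among themselves, at -1.12, -0.15 and -0.50 in batches 1, 2 and 3. The plain difference of the group means, which EAE arrays 4 and 5 enter, was -0.92. A second Mag probe set, 161846_r_at, did not follow the first. It lay between 8.09 and 8.91 in EAE and between 8.07 and 8.66 in control (log2 fold change -0.10, limma adjusted p = 0.639), with its highest value in EAE 4, where the first probe set was lowest. Over the 8 arrays, which share the normalization, the correlation between both was r = -0.38, given as a description.

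Mbp (myelin basic protein), one of the most abundant proteins of compact myelin, gave no call. Its brighter probe set 96311_at had log2 signals of 11.54, 11.87, 11.94, 11.41 and 11.99 in EAE arrays 1 to 5 and 11.98, 11.93 and 12.01 in control arrays 1 to 3. EAE arrays 1 and 4 were 0.46 below the mean of EAE arrays 2, 3 and 5, and those 3 arrays were 0.04 below the control mean. The log2 fold change was -0.19 (SE 0.101, 95% interval -0.45 to 0.07, limma adjusted p = 0.272), which leaves room for a fall to 73.1% of control as well as for no fall. The exact permutation p was 0.196. The dimmer probe set 96310_at lay between 6.69 and 6.87 in EAE and between 6.73 and 6.84 in control (log2 fold change -0.10, adjusted p = 0.389).

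Mobp (myelin-associated oligodendrocyte basic protein), a further basic protein of compact myelin, was measured by 4 probe sets with different patterns. The brightest, 100536_at, was at 11.83, 11.68, 11.59, 11.70 and 11.34 in EAE arrays 1 to 5 and at 11.77, 11.92 and 11.82 in control arrays 1 to 3. Only EAE 1 reached the controls, and EAE 5 was the lowest. Its log2 fold change was -0.13 (SE 0.0874, 95% interval -0.36 to 0.09, limma adjusted p = 0.374), with an exact permutation p of 0.125. The probe set 99047_at was at 9.88, 10.56, 10.83, 9.48 and 10.02 in EAE arrays 1 to 5 and at 10.77, 10.23 and 10.54 in control arrays 1 to 3. Here EAE arrays 1 and 4 were the lowest and EAE 3 was the highest of all 8 arrays, and the pairs went in both directions, at -0.89, 0.33 and 0.29 in batches 1, 2 and 3. The probe set 99048_g_at carries the same transcript accession in the annotation and ran in parallel with it (r = 0.99 over the 8 arrays, a description), so these are not separate evidence. Their log2 fold changes were -0.09 (adjusted p = 0.858) and -0.12 (adjusted p = 0.816). The last probe set, 99046_at, lay between 9.24 and 9.60 in EAE and between 9.38 and 9.51 in control, with a log2 fold change of 0.00 (SE 0.0951, adjusted p = 0.984).

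Cldn11 (claudin-11), the protein of the tight junctions between turns of myelin, was the only gene whose brightest probe set had a positive log2 fold change with batch as a term. The log2 signal of 100044_at was 10.17, 10.68, 10.58, 10.02 and 10.75 in EAE arrays 1 to 5, and 10.16, 10.33 and 10.34 in control arrays 1 to 3. EAE arrays 2, 3 and 5 were above all control arrays, EAE 4 was below all of them and EAE 1 was level with the lowest. The log2 fold change was 0.20 (SE 0.0889, 95% interval -0.02 to 0.43, limma adjusted p = 0.193) and the exact permutation p 0.411. With EAE arrays 1 and 4 left out and no batch term, an alternative added after the values were seen, Cldn11 was at 0.39 with a limma adjusted p of 0.0189, where 7.99% of all probe sets were called higher. No other member was called higher under any alternative. The second probe set, 161529_r_at, had its own order of arrays, between 7.02 and 7.58 in EAE and between 6.93 and 7.36 in control (log2 fold change -0.07, adjusted p = 0.795).

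Pmp22 (peripheral myelin protein 22), best known from the myelin of Schwann cells in peripheral nerve, was spread widely among the EAE arrays. The log2 signal of 102395_at was 8.32, 9.18, 8.21, 8.88 and 9.15 in EAE arrays 1 to 5 and 8.45, 8.56 and 8.81 in control arrays 1 to 3. EAE arrays 2, 4 and 5 were above all controls, while EAE arrays 1 and 3 were below them. The SD was 0.46 in EAE (n = 5) and 0.18 in control (n = 3), and the log2 fold change of -0.04 had a 95% interval of -0.64 to 0.56 (limma adjusted p = 0.938, exact permutation p = 0.643). This interval holds a rise as well as a fall. The second probe set, 161442_at, at 3.93 to 4.13 in EAE and 3.98 to 4.11 in control, lay below the array medians of 6.08 to 6.12.

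Cnp, an enzyme of the non-compacted myelin that borders the cytoplasm of the oligodendrocyte and a standard oligodendrocyte marker, was reported by a dim probe set only. The log2 signal of 93072_at was 4.47, 4.54, 4.48, 4.60 and 4.52 in EAE arrays 1 to 5 and 4.59, 4.54 and 4.72 in control arrays 1 to 3. All of these lie below the array medians, and the groups overlapped. The log2 fold change was -0.12 (SE 0.0762, 95% interval -0.31 to 0.08, limma adjusted p = 0.377, exact permutation p = 0.143).

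**Figure D2:**
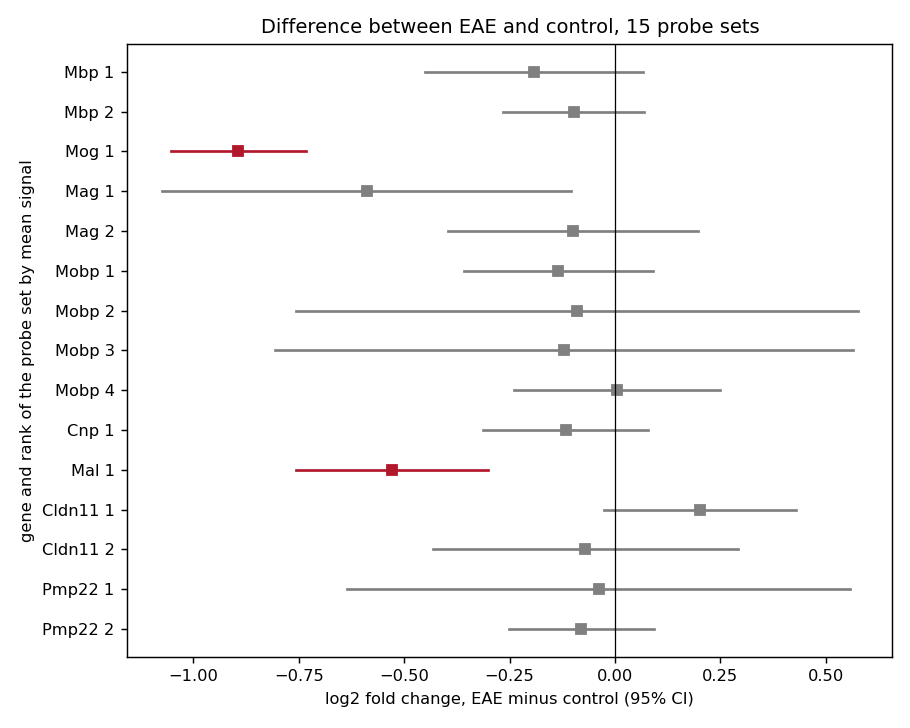
Log2 fold change (EAE minus control) and its 95% interval from limma for the 15 probe sets, ranked by mean signal within a gene, with those at an adjusted p under 0.05 in red. The intervals of Mog (-1.05 to -0.73) and Mal (-0.76 to -0.30) lie below 0, as does that of the brighter Mag probe set (-1.07 to -0.10), which did not pass after adjustment.

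The Gapdh control signals differed between the arrays, and some members split the EAE arrays in the same way. Labelling on these arrays starts at the 3′ end of transcripts, and the array carries control probe sets at the 3′ and the 5′ end of Gapdh whose difference grows as the labelled RNA gets shorter. This difference was 1.46, 0.65, 0.46, 2.07 and 0.78 (log2) in EAE arrays 1 to 5, against 0.53, 0.97 and 0.93 in control arrays 1 to 3. EAE arrays 1 and 4 stood above all others, and EAE arrays 2, 3 and 5 fell within or just below the range of the controls. The same difference for beta-actin was 2.35 and 2.79 in EAE arrays 1 and 4, 1.11 to 1.83 in EAE arrays 2, 3 and 5, and 1.62 to 2.29 in control.

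EAE arrays 1 and 4 were both below EAE arrays 2, 3 and 5 in 6 of the 15 member probe sets, against 14.7% of all probe sets. They were both above in 1, for which no share over all probe sets was taken. Those 6 lower were Mbp 96311_at, Mog, Mobp 99047_at and 99048_g_at, Mal and Cldn11 100044_at. Both Mobp probe sets ran in parallel, so the count of 6 holds them as more than separate evidence allows. The mean of arrays 1 and 4 minus that of arrays 2, 3 and 5 was -0.79 for Mobp 99047_at, -0.58 for Cldn11, -0.46 for Mbp, -0.44 for Mog and -0.21 for Mal. Among the control arrays, control 1 had the smallest Gapdh difference and the lowest values of Mog, Mal and Cldn11 100044_at. It also had the highest values of Mobp 99047_at and 99048_g_at, with Mbp 96311_at in between. By the labels EAE arrays 1 and 4 came from day 14 and EAE arrays 2, 3 and 5 from days 12 to 14, 17 and 15.5. EAE 2 was thus taken no later than EAE arrays 1 and 4, and EAE arrays 3 and 5 were taken after them. Neither the part of the day nor that of the Gapdh values in these splits was tested. Where the probes of each set lie along the transcript was not examined.

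The part of the Gapdh differences in the values of Mog and Mal was not tested, and the measurements were as follows. EAE arrays 2, 3 and 5 averaged 0.75 below the control mean for Mog (a log2 difference of -0.75) and lay at -0.43 for Mal. All EAE arrays were below all controls for both genes, so any choice among them is below the controls too. With the Gapdh difference as a covariate in place of batch the log2 fold change was -0.85 for Mog (adjusted p = 0.0100) and -0.49 for Mal (adjusted p = 0.0193). For Mbp the same fit gave -0.13 (adjusted p = 0.253).

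**Figure D3:**
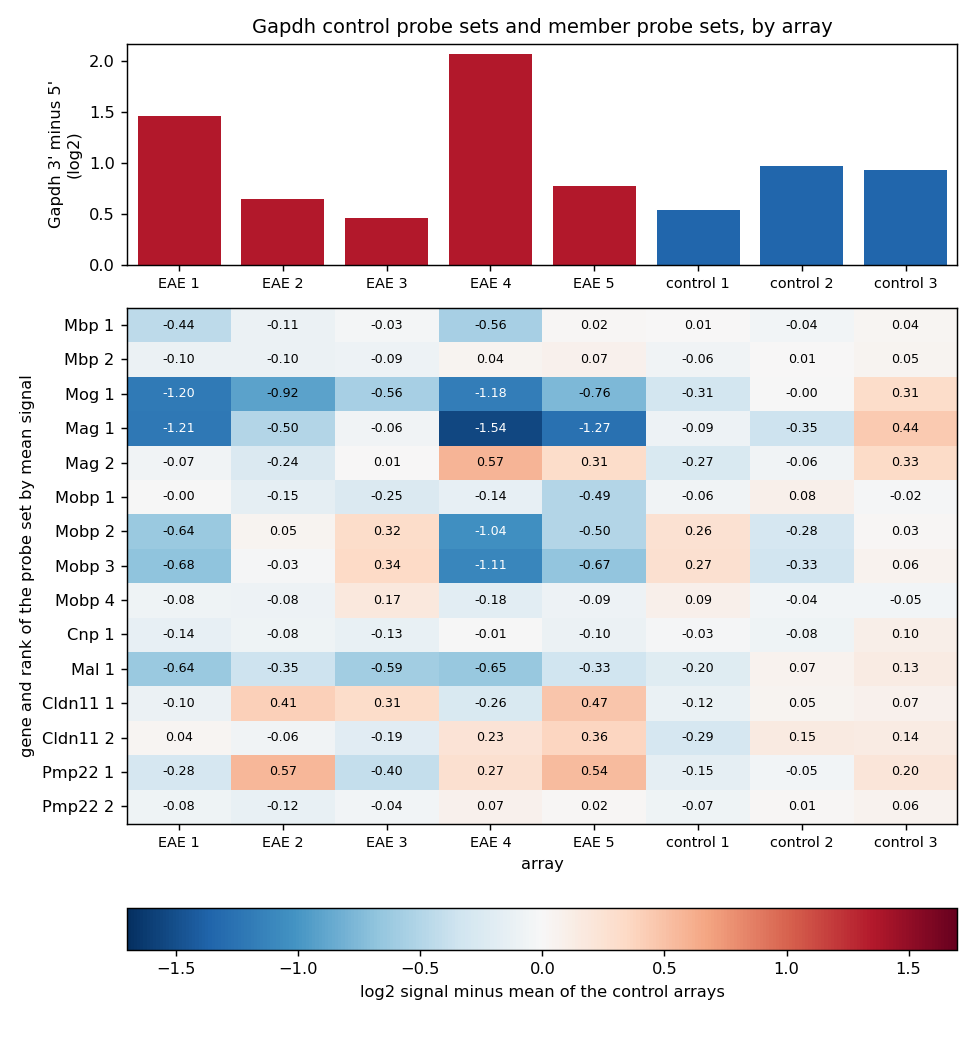
Top, the Gapdh 3′ signal minus its 5′ signal (log2) on each array (EAE left, control right). Bottom, the log2 signal of each member probe set minus the mean of its control arrays, on the same arrays, in which EAE arrays 1 and 4, with Gapdh differences of 1.46 and 2.07, hold the lowest values of Mbp 96311_at, Mog and both parallel Mobp probe sets (99047_at and 99048_g_at) among the EAE arrays.

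Many other genes of myelin and oligodendrocytes were lower in EAE. Of 41 genes listed, 22 were measured, and 13 of them were lower and 2 higher at an adjusted p under 0.05, with a median log2 fold change of -0.48, the median over all genes being -0.05. Without EAE array 3 or control array 3 the number lower was 6. The largest fall was that of Lpar1, a receptor for lysophosphatidic acid found on myelinating oligodendrocytes. Its log2 signal was 7.18, 7.12, 7.05, 6.84 and 6.81 in EAE arrays 1 to 5 and 8.76, 8.89 and 8.68 in control arrays 1 to 3. The groups did not overlap, and the lowest EAE arrays were 4 and 5. Its log2 fold change was -1.66 (SE 0.0718, limma adjusted p = 0.000421). Qdpr, which recycles the cofactor tetrahydrobiopterin (-1.01, adjusted p = 0.00661), and Erbb3, a receptor for neuregulins (-0.99, adjusted p = 0.00209), fell as well. Without array 3 of either group Qdpr did not pass (adjusted p = 0.0606), and with the probe sets of the gene averaged Erbb3 was at -0.55. Apod, a lipid-binding apolipoprotein, went the other way, with 10.49, 10.54, 11.28, 10.36 and 11.00 in EAE arrays 1 to 5 and 9.38, 9.03 and 9.09 in control arrays 1 to 3 (log2 fold change 1.60, SE 0.205, adjusted p = 0.00873).

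Among enzymes that make or break down lipids of myelin, 6 of 20 measured genes were lower and 1 was higher (median log2 fold change -0.33). Ugt8a, which makes galactosylceramide, the characteristic lipid of myelin, was at 6.30, 7.11, 7.04, 6.51 and 6.63 in EAE arrays 1 to 5 and at 8.35, 8.41 and 8.59 in control arrays 1 to 3. Every EAE array was more than 1 log2 unit below every control array, and the log2 fold change was -1.63 (SE 0.154, limma adjusted p = 0.00383). Elovl6, a fatty acid elongase (-0.90), Fads1, a fatty acid desaturase (-0.56), and Dhcr7, which catalyses the last step of cholesterol synthesis (-0.54), were lower too. Fitted on treatment alone, Fads1 had a limma adjusted p of 0.0581 and Dhcr7 one of 0.0665. With array 3 of either group left out these were 0.113 and 0.134. With the Gapdh difference as a covariate in place of batch they were 0.0810 and 0.0899. Without EAE arrays 1 and 4 and with no batch term they were 0.0784 and 0.157. Dhcr7 also missed the threshold without array 1 of either group (0.0757). Its log2 signal, at 4.46 to 5.00 in EAE and 5.03 to 5.54 in control, lay below the array medians of 6.08 to 6.12.

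Transcription factors of the oligodendrocyte lineage were mixed, with 5 of 13 lower, 1 higher and a median log2 fold change of -0.10. Sox10, which switches on myelin genes, was at 7.51, 7.67, 8.15, 7.70 and 7.92 in EAE arrays 1 to 5 and at 8.19, 8.15 and 8.63 in control arrays 1 to 3. The groups met at EAE 3 and control 2, and the log2 fold change was -0.55 (SE 0.0757, limma adjusted p = 0.0109). Id4, an inhibitor of oligodendrocyte differentiation (-0.85), Yy1 (-0.71) and Smad7 (-0.68), both reported to favour that differentiation, also fell, while Egr2, a regulator of myelination in Schwann cells, was higher (0.73, adjusted p = 0.00381). Myrf, named here after its value was seen because its motif was searched, did not pass (log2 fold change 0.06, adjusted p = 0.691). Sox10 missed the threshold when fitted on treatment alone (adjusted p = 0.0534), as did Sox10 and Smad7 without array 3 of either group (0.0672 and 0.0657) and Yy1 without array 2 of either group (0.0578). Sox10 also missed it with the Gapdh difference as a covariate in place of batch (limma adjusted p = 0.0716). Without EAE arrays 1 and 4 and with no batch term the limma adjusted p of Sox10 was 0.154. With the probe sets of the gene averaged Yy1 was at -0.35. Of 5 progenitor genes Bcan, a brevican proteoglycan that astrocytes also make, was lower (-1.27, adjusted p = 0.00411) and Vcan, the proteoglycan versican, was higher (0.44, adjusted p = 0.0221), although not with array 1, 2 or 3 of either group left out (adjusted p = 0.0564 to 0.0897).

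**Figure D4:**
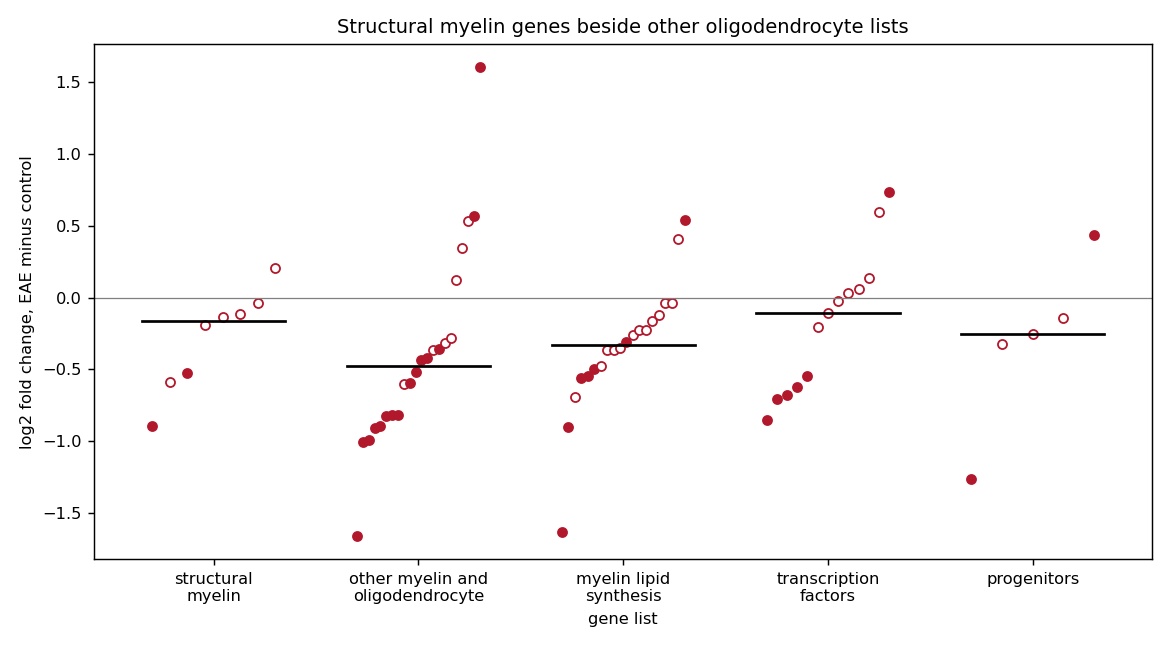
Log2 fold change (EAE minus control) of every measured gene of the structural myelin group and of 4 further oligodendrocyte lists, with filled points at an adjusted p under 0.05 from limma, open points otherwise, and the median of each list as a line. The medians are -0.16 for the structural genes and -0.48 for other myelin and oligodendrocyte genes.

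Markers of other cell types also differed between the groups. Of 22 markers of macrophages and microglia 21 were higher and 0 lower (median log2 fold change 2.37), and the mean log2 signal of the list was 8.19 to 8.70 in EAE arrays and 5.96 to 6.07 in control arrays. Markers of neurons were lower for 8 of 15 genes and higher for 0 (median -0.51, list mean 8.40 to 8.73 in EAE and 9.15 to 9.18 in control). Of 11 Hox genes that mark the position of the spinal cord along the body axis 5 were lower and 0 higher (median -0.35, list mean 6.50 to 6.59 in EAE and 6.86 to 6.91 in control). Among the lower ones Hoxa9, Hoxc8, Hoxc9 and Hoxd8 did not pass without array 2 of either group (limma adjusted p = 0.0919 to 0.138). All of these differences lie beside those of Mog and Mal in the same arrays, and their part in them was not tested. The mean of the structural myelin genes was 9.04, 9.40, 9.33, 9.03 and 9.30 in EAE arrays 1 to 5 and 9.42, 9.50 and 9.70 in control arrays 1 to 3. It was lowest in EAE arrays 1 and 4. The mean of the macrophage and microglia list was 8.70 in EAE 3 and 8.19 to 8.28 in the other EAE arrays, and a relation between both means was not tested.

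Schwann cells of peripheral nerve also make Pmp22, Mag and Mbp. Of 16 Schwann cell genes listed, 8 were measured, of which 3 were lower (Sox10, S100b and Gap43, all shared with glia or neurons of the cord) and 1, Egr2, was higher. Without array 3 of either group S100b did not pass (adjusted p = 0.0832), and Gap43 did not with array 1, 2 or 3 of either group left out (0.0588 to 0.0924). Prx and Pmp2, defining genes of the list, are not analysed here, so the share of peripheral myelin RNA was not tested.

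Among themselves the structural genes formed no single pattern. Over the 8 arrays, which share one normalization and the split into groups, the correlation was r = 0.91 between Mog and Mal, 0.84 between Mog and Mag and 0.75 between Mbp and Mog, but -0.65 between Mobp and Cldn11, all given as descriptions. The genes outside the group with the profile most like the mean of the 8 members were Pigu (r = 0.99 over the 8 arrays), Ckmt1 (0.98), Pard6a (0.98), Inpp5j (0.98), Vtn (0.98) and Fzd8 (0.98). Ckmt1, a creatine kinase of mitochondria, was at 7.22, 8.30, 8.14, 7.22 and 7.90 in EAE arrays 1 to 5 and at 8.56, 8.79 and 9.05 in control arrays 1 to 3 (log2 fold change -0.92, limma adjusted p = 0.0221). These genes were picked for the highest r among all genes outside the group. The low values of Ckmt1 in EAE arrays 1 and 4, where the member mean is lowest, follow from that choice. Pigu, a subunit of the enzyme that attaches proteins to glycosylphosphatidylinositol anchors, had a log2 fold change of -0.28 (adjusted p = 0.0763).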

How the data were processed

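RNA of whole spinal cords, pooled from 2 animals per array, was hybridized to Affymetrix MG U74Av2 arrays. The log2 values deposited by the authors were used without further normalization. According to the methods, the authors made them in Partek Genomics Suite with RMA, quantile normalization and adjustment for GC content (versions not given in the sources used here). The 66 control probe sets did not enter the fit, and dim probe sets were kept. Groups and batches came from the sample labels.

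R 4.3.3 and its package limma 3.58.1 (functions lmFit and eBayes) fitted treatment and batch with 2 residual and 3.05 prior degrees of freedom, two-sided, after the 2-way analysis of variance named in the methods. The p-values were adjusted by Benjamini-Hochberg over 12422 probe sets. Replicate numbers equal batches. The deviations of arrays of the same batch from their group means correlated at 0.30, -0.23 and 0.41 in batches 1, 2 and 3. The procedure was tested on simulated data. Figures were drawn with matplotlib 3.10.9.

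The members and the 12 gene lists (213 genes, 157 measured) were chosen with earlier results of these data known. The brightest probe set stood for a gene. Named genes were all member probe sets, up to 4 called genes with the largest change per list, and the 6 genes most like the member mean. The annotation gave 1 symbol to 10833 probe sets, several to 396 and none to 1193, and 10817 were matched by Entrez identifier to GRCm38.p6. The labels do not say whether the pools came from separate inductions, so p-values measure the spread between these arrays, whose number limits the precision. Alternatives covered the batch term, moderation, trend, centring, dim probe sets, RNA quality, gene summaries and single arrays.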

Additional observations from a re-analysis of the deposited data

Results flagged for a closer look

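Of 69 groups of 5 EAE arrays examined, 5 had an array whose distance from the others was large for the range of the group, where chance gives about 1 in 20. Mobp 99046_at was 9.60 in EAE 3, against 9.24 to 9.35 in the remaining EAE arrays and 9.51, 9.38 and 9.38 in control arrays 1 to 3. Fads1 was 8.42 in EAE 1, against 8.87 to 9.05 in the other EAE arrays. Lgals3, the galectin of phagocytes, was 8.72 in EAE 2, against 9.24 to 9.31 in the others. Slc4a4, a bicarbonate transporter of astrocytes, was 6.57 in EAE 4, against 7.32 to 7.60 in the others. The mean of the macrophage and microglia list was 8.70 in EAE 3, against 8.19 to 8.28 in the others. No cause was tested.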

How the results depend on the processing

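With 3 pairs the estimate of spread rests largely on the variances shared across probe sets. Without moderation 0 members were lower, 0 other oligodendrocyte genes were lower or higher, and 0 probe sets were lower and 1 higher over the whole array. Otherwise Mog was lower under every alternative (-0.93 to -0.75), and Mal (-0.58 to -0.43) under all but those in which arrays of batch 2 or 3 were left out. With 1 array left out in turn the number of members lower was 1 to 2, of other oligodendrocyte genes 6 to 13 lower and 1 to 2 higher, and of all probe sets 225 to 1412 lower and 521 to 1026 higher, the counts of lower genes and probe sets being lowest without array 3 of either group, and the members at 1 without array 2 or 3 of either group. EAE arrays 4 and 5 have no weight with batch as a term. Without the replicate block (treatment only) 2 members, 12 other oligodendrocyte genes and 1278 probe sets were lower, with Mog at -0.92 and Mal at -0.51, and the block changed no call on a member.

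Mag 102405_at was lower with the Gapdh covariate beside batch (adjusted p = 0.0220, added after the values were seen) and among brighter probe sets (0.0470). The mean of both Mag probe sets was lower as well (log2 fold change -0.34, limma adjusted p = 0.0419). The adjusted p of 102405_at itself lay between 0.0220 and 0.393 over all alternatives. That of Mog lay between 0.000813 and 0.106, of Mal between 0.00590 and 0.204 and of Cldn11 100044_at between 0.0189 and 0.568. Without EAE arrays 1 and 4, 1 other oligodendrocyte gene was higher with batch as a term and 4 without it (added after the values were seen), where 1 member, Cldn11, was higher. With the Gapdh covariate in place of batch 4 were higher, and with median centring, which moved all fold changes by -0.03 at the median, 1.

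Probe sets that were not called changed sign under some alternatives. Without EAE arrays 1 and 4 Mobp 99047_at was at 0.31, 99048_g_at at 0.29 and Pmp22 102395_at at 0.0073. With these left out and no batch term Mag 161846_r_at was at 0.027, Cldn11 161529_r_at at 0.037 and Pmp22 at 0.24. With the Gapdh covariate in place of batch these were at 0.027, 0.020 and 0.13, without the block at 0.12, 0.075 and 0.14, and with a random block at 0.071, 0.044 and 0.10, while Mobp 99046_at was at -0.0099, -0.051 and -0.039 (and -0.029 with centring). Leaving out 1 array gave -0.25 to 0.012 for Mag 161846_r_at, -0.30 to 0.31 for Mobp 99047_at, -0.33 to 0.29 for 99048_g_at, -0.10 to 0.091 for 99046_at, -0.27 to 0.060 for Cldn11 161529_r_at and -0.37 to 0.25 for Pmp22 102395_at. The causes were not tested.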

Other observations

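Other glial and stromal markers changed in the same arrays. Of 12 astrocyte genes 4 were lower and 1 was higher (median log2 fold change -0.21). The higher gene was Gfap, the intermediate filament of astrocytes, with 11.17, 11.47, 11.73, 11.40 and 11.47 in EAE arrays 1 to 5 and 10.39, 10.72 and 11.05 in control arrays 1 to 3 (log2 fold change 0.74, SE 0.0656, limma adjusted p = 0.00326). Ntsr2, a neurotensin receptor of astrocytes (-1.11), Sparcl1, a secreted matrix protein (-0.70), and Slc4a4 (-0.56) were lower. Of 12 genes of meninges and fibroblasts 3 were higher and 0 lower, namely Fn1, which encodes fibronectin (1.32, adjusted p = 0.00147), Dcn, which encodes decorin (1.15, adjusted p = 0.00730), and Mgp, the matrix Gla protein (0.93, adjusted p = 0.0265).

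Of 12 T cell genes 5 were higher and 1 lower (median 0.22), among them Cd2 (0.67, adjusted p = 0.00608) and Cd3e, a subunit of the T cell receptor complex (0.66, adjusted p = 0.00885). Neuronal genes that fell included Slc32a1, the transporter that fills inhibitory vesicles (-0.84, adjusted p = 0.00280), Nefh, the heavy neurofilament chain (-0.69, adjusted p = 0.00547), and Gad1, an enzyme that makes GABA (-0.68, adjusted p = 0.00469). The macrophage and microglia list was led by the lysozyme Lyz2 (5.93), the Fc receptor Fcgr2b (4.70), Lgals3 (3.77) and the complement gene C1qb (3.56). With the probe sets of a gene averaged Lyz2 was at 3.42 and C1qb at 1.97. Without array 3 of either group Cd3e (adjusted p = 0.0722), Ntsr2 (0.170), Sparcl1 (0.0648), Slc4a4 (0.0653) and Mgp (0.152) did not pass, nor did Ntsr2 without array 1 (0.0518) or Slc4a4 (0.0555) and Mgp (0.104) without array 2 of either group.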
